A study of Mus musculus with 9 samples.

Results

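Expression of 9 genes of glycogen metabolism was examined by RNA sequencing in mouse duodenal organoids that carried an excess of either hypoxia-inducible factor. The genes were chosen by name and matched on the symbol in each table: Ppp1r3c, Ppp1r3b, Ppp1r3d, Gys1, Gbe1, Gyg, Pygl, Pygb and Ugp2, which are 9 of the 46517 genes listed. Organoids are small epithelial structures grown in a gel of basement membrane proteins. These were derived from the crypts of wild-type C57BL/6J mice, kept in 5% O2 in medium conditioned by cells that secrete Wnt3a, R-spondin 3 and noggin, and dissociated and transduced with adenovirus at 50 particles per cell about 72 hours before RNA was taken. The control group, Ad-GFP, received a vector for green fluorescent protein, the Ad-hHIF2 group received human HIF2, and the Ad-hHIF1 group received human HIF1. In each human factor, prolines had been replaced by alanine, so that VHL could not direct its breakdown. Expression from these vectors was transient, and all 9 samples had been exposed to virus. Each group held 3 samples, numbered 1, 3 and 4 in the labels. The study calls them biological replicates, but the labels do not say whether they came from separate mice or cultures, so p-values here measure the spread between these samples.

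Glycogen is the branched glucose polymer in which cells store carbohydrate. Ugp2 makes UDP-glucose, the activated sugar. Gyg (glycogenin) starts the chain, Gys1 (glycogen synthase of muscle and most other tissues) extends it and Gbe1 (branching enzyme) introduces the branches. Pygl and Pygb, the liver and brain forms of glycogen phosphorylase, release glucose-1-phosphate from it. Ppp1r3c, Ppp1r3b and Ppp1r3d are targeting subunits that bring protein phosphatase 1 to glycogen, where it activates the synthase and inactivates phosphorylase. Glycogen storage under hypoxia is a known HIF-dependent response in several cell types, and PPP1R3C, GYS1 and GBE1 are known hypoxia-responsive genes in such cells. HIF1 and HIF2 bind short DNA motifs known as hypoxia response elements.

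The promoters of the member that rose most and of the 2 members that fell most under Ad-hHIF2 are printed here, so that the sequence can be read beside the expression values. They are RefSeq sequences of build GRCm38.p6, from 250 bases before to 50 bases after the annotated start, written 5′ to 3′ on the strand of the gene. Capitals mark the core of the hypoxia response element, ACGTG or GCGTG, on either strand, so that a match on the opposite strand reads CACGT or CACGC. The palindrome CACGTG (an E-box) counts as 2 overlapping ACGTG matches. For Pygl the RefSeq start lies 3805 bases inside the GENCODE gene span given with its values, so the annotations place its start differently, and the window holds only the RefSeq one; for Ppp1r3c and Gys1 they differ by 49 and 5 bases.
Ppp1r3c, chr19:36736555-36736854, minus strand: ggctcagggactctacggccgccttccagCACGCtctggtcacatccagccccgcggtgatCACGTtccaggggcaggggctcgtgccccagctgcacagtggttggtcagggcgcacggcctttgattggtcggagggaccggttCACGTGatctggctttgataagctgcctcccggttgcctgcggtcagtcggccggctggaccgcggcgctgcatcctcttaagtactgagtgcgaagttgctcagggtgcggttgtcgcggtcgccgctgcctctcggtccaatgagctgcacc
Gys1, chr7:45434589-45434888, plus strand: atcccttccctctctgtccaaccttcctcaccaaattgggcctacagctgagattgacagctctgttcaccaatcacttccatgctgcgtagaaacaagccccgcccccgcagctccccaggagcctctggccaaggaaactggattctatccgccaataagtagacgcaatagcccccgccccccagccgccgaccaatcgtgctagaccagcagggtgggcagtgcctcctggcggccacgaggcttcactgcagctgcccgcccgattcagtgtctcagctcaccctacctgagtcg
Pygl, chr12:70227634-70227933, minus strand: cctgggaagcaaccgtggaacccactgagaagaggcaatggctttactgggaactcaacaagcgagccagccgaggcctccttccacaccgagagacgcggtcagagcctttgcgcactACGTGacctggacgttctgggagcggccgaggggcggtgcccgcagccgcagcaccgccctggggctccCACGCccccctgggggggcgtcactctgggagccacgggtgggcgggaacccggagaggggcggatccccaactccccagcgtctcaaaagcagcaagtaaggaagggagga

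The Ppp1r3c promoter held 4 core matches: 3 of ACGTG, of which a CACGTG at position -104 gave 2, and 1 of GCGTG. The Pygl window held 2, an ACGTG at position -131 and a GCGTG on the opposite strand at position -62. The Gys1 and Gbe1 promoters held 0. Pygb had 2 matches, Gyg 3 and Ppp1r3d 3, whereas Ugp2 has 2 listed promoters, with 6 and 0. Of the 32851 mouse promoters of the same length, 19.6% contained ACGTG, 32.4% contained GCGTG, 43.8% contained either and 7.15% contained CACGTG. The set of promoter sequences used here had an entry for 8 of the 9 genes, Ppp1r3b being the exception. A match describes the letters in this window and is not a bound site, and the absence of a match says only that these letters are not in it.

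Library totals ran from 21722618 to 51119041 expected counts, the fractional read counts estimated by RSEM. A pair of repeat-derived genes, Gm10800 and Gm26870, took 16.0% of the counts in Ad-hHIF1 replicate 3 and 0.433% to 4.28% elsewhere. Ad-hHIF2 replicate 1 had the highest normalization factor, 1.31, against 0.907 to 1.03 in the other samples. Mouse Epas1, which encodes HIF2, was at 604 to 758 CPM (normalised read counts scaled to library size) in the Ad-hHIF2 samples and at 1.47 to 3.07 CPM in the others. Mouse Hif1a was at 299 to 319 CPM with Ad-hHIF1 and at 198 to 251 CPM in the others. Whether reads of the human transgenes were counted in these mouse genes is not given in the sources used here. Of 6 general epithelial markers, Krt8, Krt18, Krt19 and Cdh1 were abundant, at 204 CPM or more in every sample, whereas Epcam (1.42 to 3.80 CPM) and Vil1 (3.27 to 4.94 CPM) were low. Against Ad-GFP, the Ad-hHIF2 samples did not overlap for Epcam (2.45 to 3.80 and 1.42 to 1.90 CPM), Cdh1 (204 to 226 and 294 to 352 CPM) or Krt8 (1021.9 to 1120.1 and 1143.4 to 1357.6 CPM). Of 18 markers of intestinal stem cells, enterocytes, goblet, Paneth and enteroendocrine cells, 16 were below 1 CPM in every sample, with Defa24 at 0 throughout and Olfm4, Lyz1 and Tff3 at 0 in the Ad-GFP and Ad-hHIF2 samples. Most defining markers of the labelled tissue were therefore absent or low. Among markers of other lineages, 11 of 17 stayed below 1 CPM in every sample and the highest reached 6.83 CPM. The 4 immune markers summed to 1.60 to 2.51 CPM with Ad-GFP, 3.04 to 4.40 CPM with Ad-hHIF2 and 0.511 to 1.27 CPM with Ad-hHIF1. Csf1r alone carried the higher sum (0.300 to 1.91 CPM with Ad-GFP and 2.79 to 4.27 CPM with Ad-hHIF2), while the leukocyte marker Ptprc was at 0.492 to 1.15 CPM and at 0 to 0.0686 CPM. The goblet markers summed to 4.81 to 7.55, 1.55 to 2.13 and 3.52 to 4.12 CPM (controls, HIF2 and HIF1), nearly all of it Muc2. The part of these shifts in the glycogen results was not tested, and in bulk RNA fewer cells of a type and less RNA per cell cannot be told apart.

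The first question was what HIF2 does to these genes. Under Ad-hHIF2, Ppp1r3c, Ppp1r3b, Ugp2, Gyg and Pygb rose relative to Ad-GFP, whereas Gys1, Gbe1 and Pygl fell. Ppp1r3c showed the highest fold (6.32-fold), followed by Ppp1r3b and Ugp2 at about 1.6-fold, and Gyg and Pygb rose by 1.25-fold or less. Gys1 and Pygl were at about 50% of their control level, and Gbe1 was 1.28-fold lower. By edgeR's quasi-likelihood test with Benjamini-Hochberg adjustment over all genes, 8 of the 8 members tested passed an adjusted p of 0.05, 5 of them higher and 3 lower, where 15.9% of the 14987 genes tested were higher and 13.6% lower. With the additional requirement of a 2-fold change, which the study also used, 1 member was higher (Ppp1r3c; 2.90% of all genes) and 1 lower (Gys1; 3.83%). The 3 samples of a group did not overlap with the other 3 in 5 members that were higher (23.4% of all genes) and in 3 that were lower (22.4%). The median log2 fold change was 0.29 over the 8 members and -0.01 over all genes tested. With 3 samples against 3, an exact permutation test of a single gene cannot go below p = 0.10.

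**Figure D1:**
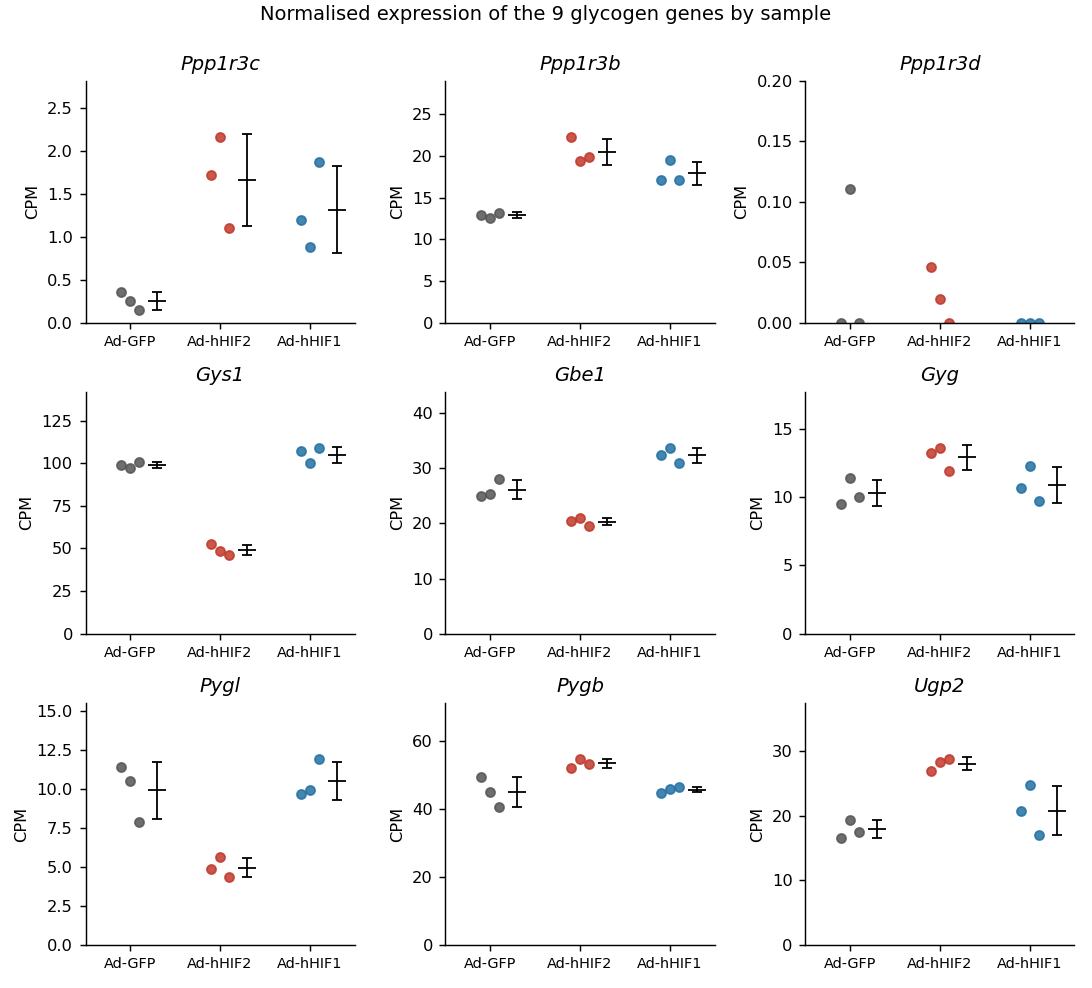
Normalised expression of the 9 glycogen genes in CPM (linear axes from 0). Each point is 1 sample, in the order replicate 1, 3 and 4 within Ad-GFP (grey), Ad-hHIF2 (red) and Ad-hHIF1 (blue), and bars give the mean and SD of 3 samples except for Ppp1r3d, which is at 0 in most samples. Ppp1r3c stands above its control range in all 6 HIF samples, whereas Gys1, Gbe1 and Pygl are below it only with Ad-hHIF2.

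Ppp1r3c (ENSMUSG00000067279, chr19:36731731-36736653, minus strand, GRCm38 position in GENCODE M21), also known as PTG, was a rare transcript. Its expected counts in replicates 1, 3 and 4 were 13, 9 and 3 with Ad-GFP, 75, 110 and 34 with Ad-hHIF2 and 41, 20 and 73 with Ad-hHIF1. After normalization these were 0.355, 0.249 and 0.150 CPM, then 1.71, 2.16 and 1.10 CPM, then 1.19, 0.876 and 1.87 CPM. Every HIF2 and HIF1 sample was above every control, and the 2 HIF groups overlapped. The log2 fold change of Ad-hHIF2 over Ad-GFP was 2.66 ± 0.444 (SE), with a 95% interval of 1.65 to 3.67 and an edgeR adjusted p of 0.00274. The interval spans folds of 3.14 to 12.7, and 3 counts in Ad-GFP replicate 4 show how few reads lie behind the control level. Of the promoters of the 2 members past 2-fold, that of Ppp1r3c held 4 core matches and that of Gys1 held 0. The window of Pygl, which fell by just short of 2-fold, held 2.

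Ppp1r3b (ENSMUSG00000046794, chr8:35375739-35388139, plus strand), the subunit best known from liver, was at 12.9, 12.6 and 13.2 CPM with Ad-GFP and at 22.3, 19.4 and 19.9 CPM with Ad-hHIF2. The spread within each group was small beside the difference between them, and the log2 fold change was 0.68 ± 0.0851 (SE), with an edgeR adjusted p of 0.000633. Ppp1r3d (ENSMUSG00000049999, chr2:178411206-178414472, minus strand) had 4 counts in Ad-GFP replicate 3, 2 and 1 in Ad-hHIF2 replicates 1 and 3, and 0 in the other 6 samples. It did not reach the count filter, so no fold was computed for it. A count of 0 allows up to 3 counts, which corresponds to 0.0767 to 0.131 CPM in the Ad-hHIF1 libraries. These limits cover counting error only.

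On the synthesis side, Ugp2 (ENSMUSG00000001891, chr11:21321138-21371201, minus strand) was at 16.6, 19.4 and 17.5 CPM with Ad-GFP and at 27.0, 28.4 and 28.8 CPM with Ad-hHIF2. The lowest HIF2 sample lay well above the highest control, with a log2 fold change of 0.66 ± 0.0812 (SE) and an edgeR adjusted p of 0.000574. By limma on the authors' TPM, Ugp2 was at 0.67 or 0.95 by pseudocount and did not pass (adjusted p = 0.0922 and 0.0569). Gyg (ENSMUSG00000019528, chr3:20122084-20155317, minus strand) was at 9.51, 11.4 and 10 CPM and then at 13.2, 13.6 and 11.9 CPM. These groups were separated by a narrow gap, and the log2 fold change of 0.33 ± 0.106 (SE) passed by a small margin (edgeR adjusted p = 0.0476). The Gyg call was lost when Ad-GFP replicate 1 (0.27, adjusted p = 0.129) or 4 (0.32, 0.0652) or Ad-hHIF2 replicate 1 (0.33, 0.115), 3 (0.29, 0.145) or 4 (0.39, 0.0545) was left out, and DESeq2 gave an adjusted p of 0.0687.

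Gys1 (ENSMUSG00000003865, chr7:45434844-45456619, plus strand) was at 98.7, 97.3 and 101 CPM with Ad-GFP and at 52.4, 48.4 and 46.3 CPM with Ad-hHIF2. The groups were far apart, and the log2 fold change was -1.01 ± 0.0724 (SE), or 2.01-fold lower, with an edgeR adjusted p of 3.10e-05. Without Ad-hHIF2 replicate 4 the log2 fold change was -0.96, which left 1 member, Ppp1r3c, past 2-fold. By limma on the authors' TPM, Gys1 was at -0.38 or -0.51 by pseudocount and did not pass (adjusted p = 0.355 and 0.318). The median of the 6680 genes tested there was 0.316 or 0.454. On the opposite strand, Ruvbl2, an ATPase of chromatin remodelling complexes, overlaps the Gys1 locus by 3253 bases. Gys1 was the only member whose expected counts were fractional, in 9 of 9 samples, while the other 8 members had counts within 0.001 of a whole number in all samples. Ruvbl2 was also lower, from 46.7 ± 3.61 CPM with Ad-GFP to 27.7 ± 1.69 CPM with Ad-hHIF2 (log2 fold change -0.75, edgeR adjusted p = 0.000331), and the ratio of Gys1 to Ruvbl2 counts was 2.13 ± 0.189 and 1.78 ± 0.214, and 1.84 ± 0.0578 with Ad-hHIF1. The strand setting of the counting is not given in the sources used here, so reads of the overlap cannot be told apart between the 2 genes. Ruvbl2 was named after its values were seen.

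Gbe1 (ENSMUSG00000022707, chr16:70313949-70569716, plus strand) was at 24.9, 25.4 and 28.1 CPM with Ad-GFP and at 20.4, 20.9 and 19.6 CPM with Ad-hHIF2. The 3 HIF2 samples were the lowest 3 of the 9, and the log2 fold change was -0.36 ± 0.0777 (SE), with an edgeR adjusted p of 0.00974. Scaled by total counts alone, which moved the median of all genes tested to 0.244, Gbe1 was at -0.10 (edgeR adjusted p = 0.730) and did not pass. On the authors' TPM it was at 0.02 with both pseudocounts (SE 0.240 and 0.353) and did not pass. The median of the 6680 genes tested there was 0.316 or 0.454. Whether Gbe1 differed from these medians was not tested.

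On the breakdown side, Pygl (ENSMUSG00000021069, chr12:70190811-70231488, minus strand) was at 11.4, 10.5 and 7.85 CPM with Ad-GFP and at 4.87, 5.61 and 4.37 CPM with Ad-hHIF2. All HIF2 samples lay below all controls, with a log2 fold change of -1.0 ± 0.164 (SE) and an edgeR adjusted p of 0.00257, a change just short of 2-fold before rounding. The window at its RefSeq start, printed above, held 2 core matches. Pygb (ENSMUSG00000033059, chr2:150786735-150831758, plus strand) was at 49.2, 44.8 and 40.4 CPM and then at 52.1, 54.6 and 53.2 CPM. The log2 fold change was 0.25 ± 0.0830 (SE), with an edgeR adjusted p of 0.0492. The Pygb call was lost without Ad-GFP replicate 3 (0.25, adjusted p = 0.130) or 4 (0.19, 0.0990) or Ad-hHIF2 replicate 1 (0.29, 0.0736), 3 (0.24, 0.142) or 4 (0.26, 0.108). Both phosphorylases therefore had non-overlapping groups, in opposite directions.

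The second question was whether HIF1 acts on the same genes. The Ad-hHIF1 comparison uses the same 3 Ad-GFP samples, so the comparisons with Ad-GFP are not independent of each other. With Ad-hHIF1, edgeR called 0 of the 8 members, as it called 0 of all 15233 genes tested (0%). Without adjustment, 1308 genes had p below 0.05, and 3 of them were members, all higher (4.06% of all genes were higher at that level): Ppp1r3c, Ppp1r3b and Gbe1. DESeq2 called 68 genes higher and 76 lower and limma-voom called 4 and 1, none of them a member. DESeq2 gave no adjusted p for 5 of the 8 members (Ppp1r3c, Ppp1r3b, Gyg, Pygl and Ugp2), so it could have called only the other 3. Without a count filter, edgeR called 1 member, Ppp1r3b (adjusted p = 0.0475), and 0.868% of 29714 genes were higher and 0.424% lower at that setting. The same 3 members had non-overlapping groups, all higher (8.38% of all genes were higher without overlap and 9.06% lower). The median log2 fold change was 0.16 over the members and 0.00 over all genes.

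Ppp1r3c was 5.04-fold higher with Ad-hHIF1 (log2 fold change 2.33 ± 0.532, SE, interval 1.10 to 3.56, edgeR adjusted p = 0.486). The study, which used a different test on this series, lists Ppp1r3c among the few genes upregulated by both factors. Ppp1r3b was at 17.1, 19.5 and 17.1 CPM with Ad-hHIF1, above all controls (log2 fold change 0.47 ± 0.0950, SE, edgeR adjusted p = 0.486). Gbe1 was at 32.4, 33.7 and 31.0 CPM, with a log2 fold change of 0.31 ± 0.0801 (SE) and an edgeR adjusted p of 0.490, and did not pass. Gys1 was at 107, 100 and 109 CPM (log2 fold change 0.09, interval -0.07 to 0.26), and overlapped its controls. Ugp2 was at 20.8, 24.7 and 17.1 CPM (log2 fold change 0.22, interval -0.10 to 0.54). Gyg (10.7, 12.3 and 9.72 CPM), Pygl (9.66, 9.94 and 11.9 CPM) and Pygb (44.7, 45.7 and 46.3 CPM) had log2 fold changes of 0.08, 0.08 and 0.02. Their intervals, -0.23 to 0.38, -0.30 to 0.46 and -0.17 to 0.22, are the changes these samples allow.

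**Figure D2:**
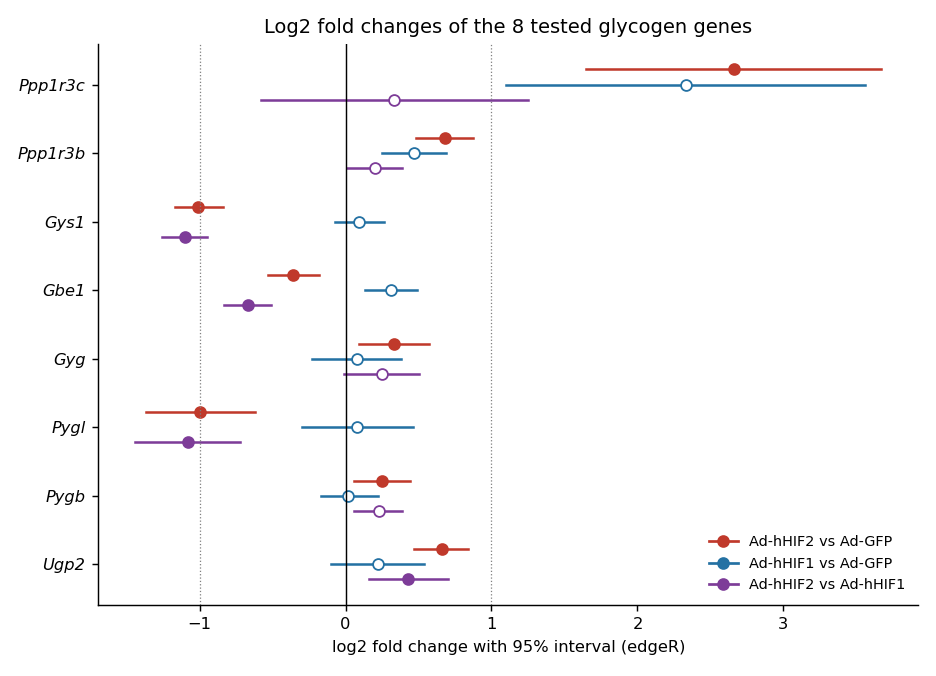
Log2 fold changes of the 8 tested glycogen genes (x axis) with their 95% intervals, for Ad-hHIF2 vs Ad-GFP (red), Ad-hHIF1 vs Ad-GFP (blue) and Ad-hHIF2 vs Ad-hHIF1 (purple). Filled points passed an adjusted p of 0.05 in edgeR, open points did not, and dotted lines mark 2-fold. Gys1, Gbe1 and Pygl are filled and to the left of 0 in both comparisons that involve Ad-hHIF2.

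The difference between the 2 factors was tested directly in a fit of all 9 samples. These RNA values do not show whether both factors were made in equal amounts. In this contrast the kind of factor and its amount therefore cannot be told apart. Gys1, Pygl and Gbe1 were lower with Ad-hHIF2 than with Ad-hHIF1, and Ugp2 was higher. Of the 8 members, 1 was higher (13.7% of the 15556 genes tested) and 3 were lower (12.0%), and 2 of the latter, Gys1 and Pygl, changed at least 2-fold (3.70%). The log2 fold change of Gys1 was -1.10 ± 0.0714 (SE, edgeR adjusted p = 3.18e-06), of Pygl -1.08 ± 0.162 (SE, adjusted p = 0.000900) and of Gbe1 -0.67 ± 0.0721 (SE, adjusted p = 0.000103). For all of them the 3 Ad-hHIF2 samples lay below the 3 Ad-hHIF1 samples. Only 1 member stayed past 2-fold when Ad-hHIF2 replicate 4 or Ad-hHIF1 replicate 4 was left out. Ugp2 was higher by 0.43 ± 0.121 (SE, edgeR adjusted p = 0.0248), and this call was lost without Ad-hHIF2 replicate 1 (0.47, adjusted p = 0.0503), 3 (0.40, 0.0872) or 4 (0.42, 0.0684) or Ad-hHIF1 replicate 1 (0.41, 0.0789) or 4 (0.31, 0.0550).

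Ppp1r3c did not differ detectably between the factors. Its log2 fold change of Ad-hHIF2 over Ad-hHIF1 was 0.33 ± 0.411 (SE), with an interval of -0.58 to 1.25 and an edgeR adjusted p of 0.610, so a difference of up to 2.37-fold is within the interval. The values for Ppp1r3b were 0.20 (interval 0.01 to 0.39, adjusted p = 0.121), for Gyg 0.25 (interval -0.01 to 0.50, adjusted p = 0.151) and for Pygb 0.23 (interval 0.06 to 0.39, adjusted p = 0.0534). For Pygb the 2 groups did not overlap, and leaving out Ad-GFP replicate 4 from the shared estimate of spread brought it to an adjusted p of 0.0332. It was also past the threshold by limma-voom (0.0383), with only the 6 HIF samples in the fit (0.0426) and in a robust fit (0.0461).

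The levels of the members were ordered per length, as CPM per kilobase of effective length. In Ad-GFP, Gys1 was highest (29.7 ± 1.16), followed by Pygb (17.7 ± 2.40), Ugp2 (11.8 ± 1.17), Gbe1 (10.8 ± 1.78), Gyg (6.62 ± 0.652), Pygl (3.75 ± 0.724), Ppp1r3b (3.17 ± 0.0786), Ppp1r3c (0.0975 ± 0.0399) and Ppp1r3d. The ranges of Ugp2 and Gbe1 and those of Pygl and Ppp1r3b overlapped, so their order is not resolved. In Ad-hHIF2 the order began with Pygb (21.1 ± 0.358), Ugp2 (17.1 ± 0.456) and Gys1 (15.1 ± 0.971), whose ranges did not overlap. Gyg (8.24 ± 0.592) and Gbe1 (7.97 ± 0.833) overlapped, followed by Ppp1r3b (5.05 ± 0.385), Pygl (1.84 ± 0.234) and Ppp1r3c (0.642 ± 0.206). Ad-hHIF1 kept the control order for its highest genes, Gys1 (31.5 ± 2.08) and Pygb (20.5 ± 1.05), with Gbe1 (13.4 ± 1.36) and Ugp2 (12.9 ± 0.881) overlapping.

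**Figure D3:**
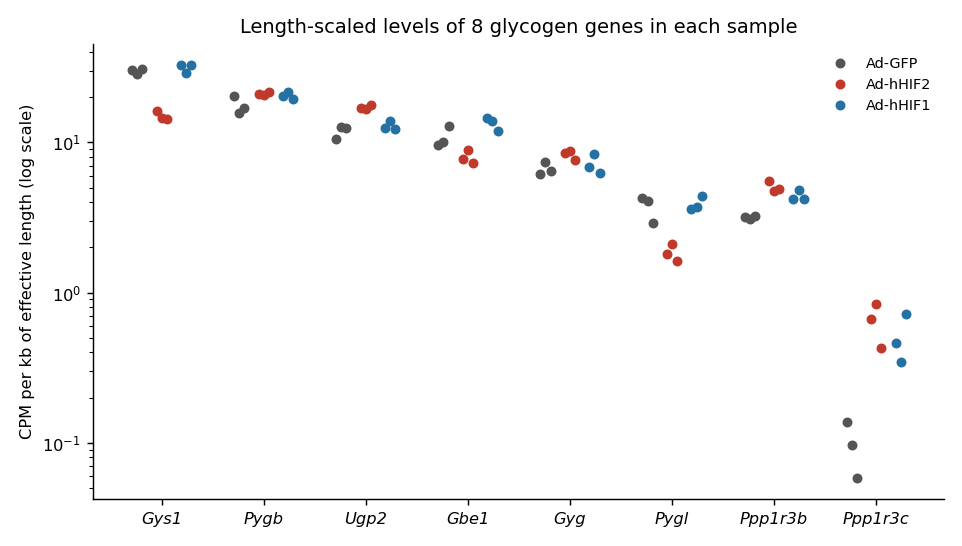
Levels of 8 glycogen genes in CPM per kilobase of effective length (log axis). Each point is 1 sample of Ad-GFP (grey), Ad-hHIF2 (red) or Ad-hHIF1 (blue). Gys1 leads in the Ad-GFP and Ad-hHIF1 samples and falls below Pygb and Ugp2 in the Ad-hHIF2 samples, and Ppp1r3c is the lowest of the 8 in every sample.

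Within a sample, ratios do not depend on library scaling. Gys1 to the summed glycogen phosphorylases was 1.20, 1.42 and 1.43 per length in Ad-GFP, 0.697, 0.628 and 0.619 in Ad-hHIF2 and 1.34, 1.10 and 1.36 in Ad-hHIF1. Synthase transcripts thus exceeded phosphorylase transcripts in all 6 samples without HIF2 and in 0 of the 3 with it. This ratio was chosen after the values were seen and has no test. By TPM, Pygl made up 17.0% ± 3.31 of glycogen phosphorylase in Ad-GFP, 7.95% ± 0.940 in Ad-hHIF2 and 15.8% ± 2.25 in Ad-hHIF1, and Pygb made up 79.8% ± 1.09, 90.5% ± 1.07 and 82.0% ± 1.72. In the Ppp1r3 family, Ppp1r3b was the main transcript in every sample, with 53.2% ± 6.15, 68.4% ± 2.08 and 56.5% ± 4.98. Ppp1r3c was 1.82% ± 0.688, 8.56% ± 2.63 and 6.81% ± 2.15 of the family, while the share of Ppp1r3e was 27.3% ± 8.68, 11.8% ± 2.62 and 22.1% ± 5.74. The TPM of Ppp1r3c were rounded to 0.02, 0.01 and 0.01 in Ad-GFP. From expected counts per effective length, which are not rounded in this way, its share was 1.60% ± 0.534, 8.65% ± 2.72 and 6.55% ± 2.33. Gys1 was at least 99.7% of the synthase in every sample, the liver form Gys2 being nearly absent.

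**Figure D4:**
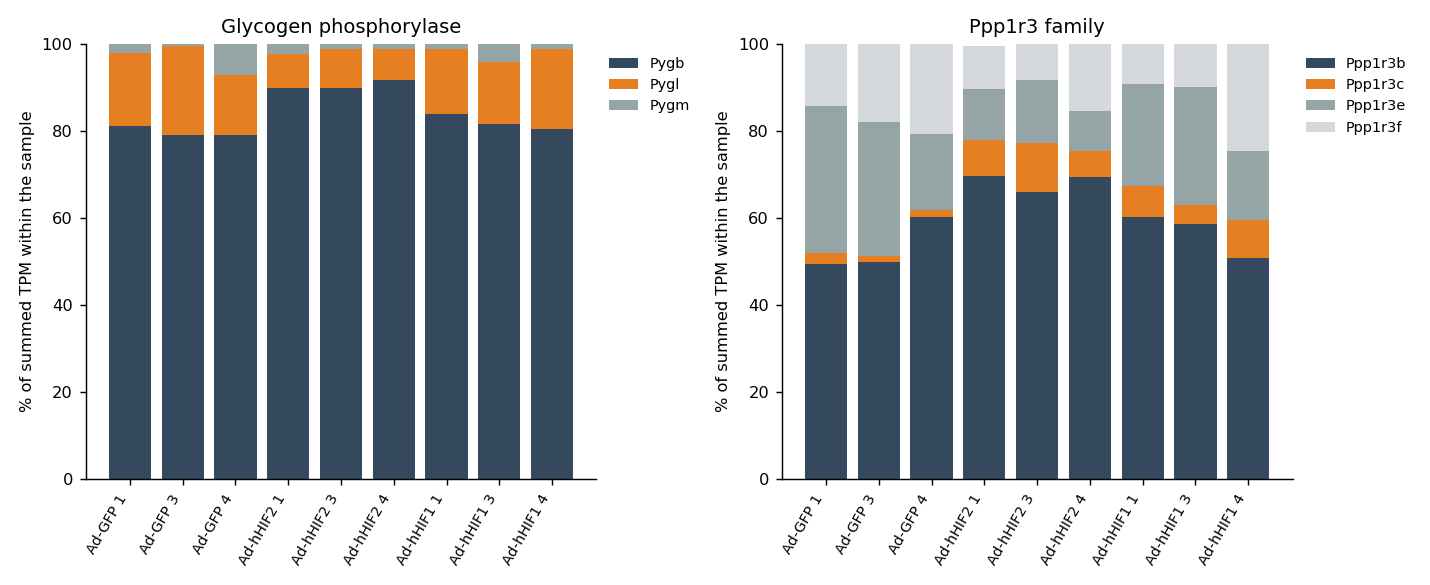
Make-up of glycogen phosphorylase (left) and of the Ppp1r3 family (right) in each sample, in percent of the summed TPM of each family. In the right panel Ppp1r3a, Ppp1r3d and Ppp1r3g are in the sum but too low to draw. The Pygl share lies between 7.08% and 8.95% in the Ad-hHIF2 samples and between 13.8% and 20.4% in the others.

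Of 25 other genes of glycogen metabolism, 20 were tested. Compared with Ad-GFP, 5 of them rose and 2 fell under Ad-hHIF2 (15.9% and 13.6% of all genes), with a median log2 fold change of 0.07. This count was 3 without Ad-GFP replicate 1, Ad-GFP replicate 3 or Ad-hHIF2 replicate 3, 4 without Ad-hHIF2 replicate 1 or 4, and 9 without Ad-GFP replicate 4. In the same fits 22.9%, 20.4%, 19.8%, 19.8%, 20.9% and 28.9% of all genes were called, against 29.5% with all samples. Among the phosphoglucomutases, which feed glucose-1-phosphate into the pathway, Pgm2 fell from 103 ± 5.38 to 65.6 ± 2.89 CPM (log2 fold change -0.65, edgeR adjusted p = 0.000398), whereas the related Pgm2l1, a glucose-1,6-bisphosphate synthase, rose from 4.03 ± 0.722 to 6.95 ± 1.65 CPM (0.80, adjusted p = 0.0227). In breakdown, the lysosomal glucosidase Gaa rose from 75.0 ± 1.34 to 105 ± 5.83 CPM (0.49, adjusted p = 0.00144). The muscle phosphorylase Pygm was near background, at 0.535 ± 0.344 and 0.281 ± 0.0982 CPM (-0.90, adjusted p = 0.343).

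Of the phosphatase catalytic subunits, Ppp1cc rose by 0.30 (edgeR adjusted p = 0.0245), and of the synthase kinases, Gsk3b rose by 0.29 (adjusted p = 0.0195). None of the 5 phosphorylase kinase subunits passed with Ad-hHIF2. Epm2a (laforin, a glycogen phosphatase) fell from 1.34, 1.19 and 0.900 CPM to 0.183, 0.353 and 0.485 CPM (log2 fold change -1.77 ± 0.451, SE, edgeR adjusted p = 0.0188), the only call among the 20 with a change of at least 2-fold (3.83% of all genes were lower by that rule). Ppp1r3e, another targeting subunit, was at 1.45 ± 0.404 CPM with Ad-GFP and 0.698 ± 0.183 CPM with Ad-hHIF2 (log2 fold change -1.05, edgeR adjusted p = 0.0614). The targeting subunits Ppp1r3a and Ppp1r3g, the liver synthase Gys2, Pgm5 and Nhlrc1 were too low to test. With Ad-hHIF1, 0 of the 20 passed in edgeR, where 0% of all genes did, and none was called in an alternative that gave it an adjusted p. Without adjustment, 2 were higher (4.06% of all genes) and 1 was lower (4.53%). Between the factors, 3 were higher with Ad-hHIF2 (13.7% of all genes): Gaa (0.60, adjusted p = 0.000319), Phkb, a phosphorylase kinase subunit (0.31, adjusted p = 0.0400), and Gsk3a (0.36, adjusted p = 0.0183). Another 3 were lower (12.0%): Pgm2 (-0.81, adjusted p = 4.06e-05), Epm2a (-1.91, adjusted p = 0.00773) and Stbd1, a glycogen-binding protein of autophagy (-0.54, adjusted p = 0.00177).

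**Figure D5:**
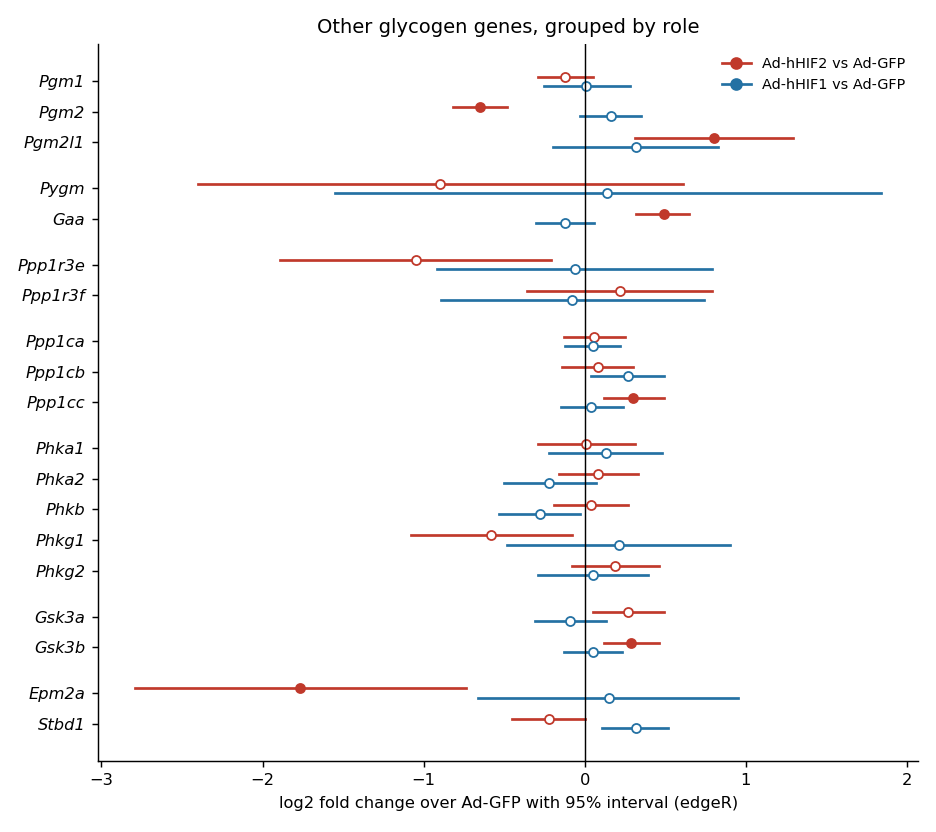
Log2 fold changes over Ad-GFP (x axis) with 95% intervals for 19 of the 20 other glycogen genes tested, grouped from top to bottom as synthesis, breakdown, phosphatase targeting, phosphatase catalytic subunits, phosphorylase kinase, synthase kinases, and glycogen quality and autophagy. Red is Ad-hHIF2 and blue Ad-hHIF1; filled points passed an adjusted p of 0.05 in edgeR. The 6 filled points are all red, from Epm2a at -1.77 to Pgm2l1 at 0.80.

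The expression pattern of Ppp1r3c over the 9 samples was also set against that of 15555 other genes, by Pearson correlation of log2 CPM. The highest values were those of D3Ertd751e (0.979), Irak4 (0.959), Gopc (0.952), Wipi2 (0.946) and Aldh3b1 (0.942). These genes had smaller differences: D3Ertd751e went from 2.12 ± 0.203 CPM in Ad-GFP to 3.65 ± 0.210 in Ad-hHIF2 and 3.26 ± 0.208 in Ad-hHIF1. Of these 5 genes, 2 were also among the 6 highest by Spearman's rho. Among the members, Ppp1r3b came closest to Ppp1r3c (0.86) and Gys1 was lowest (-0.49) by Pearson's r, but by Spearman's rho Pygb (0.63) was above Ppp1r3b (0.55), and Gbe1 and Pygl (both -0.18) were below Gys1 (-0.12). The 9 points share 3 groups and their libraries, Ppp1r3c had at most 110 counts, and the values describe likeness only.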

How the data were processed

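Total RNA from 9 samples was sequenced. The authors removed low-quality reads and estimated the deposited expected counts with RSEM, which the submitters' processing notes name. The deposited TPM values, also from RSEM, scale these to transcript length, and the effective length per gene is deposited beside them. The RSEM version, aligner, genome build, annotation and strand setting are not given in the sources used here. EBSeq, which the authors used for testing, was not run.

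Expected counts were rounded to whole numbers, filtered with edgeR's filterByExpr, normalized by TMM and tested by quasi-likelihood in R 4.3.3 (edgeR 4.0.16 with limma 3.58.1). The 6 samples of each HIF group and Ad-GFP had their own model, and a model of all 9 samples gave the difference between the factors. Benjamini-Hochberg adjustment covered all genes tested, and an adjusted p below 0.05 was required for a call, with 2-fold as a second criterion. CPM used TMM factors over all 9 samples. Values are mean ± SD with n = 3, and the SE of a log2 fold change is its size divided by the square root of F. Length-scaled levels are CPM per kilobase of effective length. They were used in place of TPM because the deposited TPM have 2 decimals and leave Ppp1r3c at 0.01 to 0.16, and shares within a family are of TPM. Positions come from GENCODE M21 (GRCm38) by Ensembl identifier, with 9 of 9 members matched.

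The genes named are all members, the other listed glycogen and glucose supply genes called in any comparison, Gys2, Pygm, Ppp1r3a, Ppp1r3g, Gaa, Gsk3b and Slc2a1, the 5 genes most correlated with Ppp1r3c, and Epas1 and Hif1a. Other genes (Ruvbl2, overlapping a member; Ppp1r3e; Pgm5 and Nhlrc1) were named after their values were seen. A gene of the wider glycogen list is included in the counts but not reported here. The members and lists were chosen with earlier results of these data known. Alternatives were limma on TPM (pseudocount 1 or 0.1, log2 scale) for genes with a mean TPM of at least 1 in a group, limma-voom, DESeq2 1.42.0, other filters and size factors, other samples in the fit, a robust fit, the replicate block and each sample left out. On counts simulated from the real means with 200 changed genes, the quasi-likelihood test recovered 77.8% of 2-fold and 91.4% of 4-fold changes for Ad-hHIF2 vs Ad-GFP (14694 genes), 59.4% and 85.3% for Ad-hHIF1 vs Ad-GFP (14785 genes) and 71.1% and 87.9% for Ad-hHIF2 vs Ad-hHIF1 (15224 genes). The simulated spread of each gene followed the trend with expression level. The number of changed genes was the same in every comparison, unlike the real calls, so recovery in the real data can differ. Replicates of a group differed by more than counting noise in every pair, so none was counted as a duplicate.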

Additional observations from a re-analysis of the deposited data

How the results depend on the processing

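The log2 fold changes of Ppp1r3c, Ppp1r3b, Pygl, Gys1 and Ugp2 for Ad-hHIF2 over Ad-GFP kept their direction in every alternative that gave a value. With a sample left out they were 2.43 to 2.99, 0.63 to 0.72, -1.12 to -0.89, -1.04 to -0.96 and 0.61 to 0.71. On total counts they were 2.91, 0.94, -0.75, -0.74 and 0.91. On the TPM scales Gys1 was at -0.38 and -0.51 (limma adjusted p = 0.355 and 0.318) and Ugp2 at 0.67 and 0.95 (0.0922 and 0.0569). For Ad-hHIF1 over Ad-GFP, Ppp1r3c was 1.99 to 2.66 with a sample left out, its adjusted p being 0.0537 or more in every alternative that gave one (DESeq2 gave none). Members called for Ad-hHIF2 over Ad-GFP numbered 6 to 7 with a sample left out (19.8% to 28.9% of all genes called, against 29.5%), 5 with at least 10 counts in every sample (34.4%; Ppp1r3c untested, Gyg and Pygb no longer called) and 0 on the TPM scales (7.37% and 8.19%), where Gbe1 was at 0.02. On those scales Ppp1r3b, Ppp1r3c and Pygl fell under the minimum TPM of 1 and gave no value, and Ad-hHIF2 replicate 1 stood at 4.0 TPM of Gys1 against 1.96 and 2.01 in its group. The median of the 6680 genes tested was 0.316 and 0.454 there, and that of the 14987 genes tested on total counts was 0.244. The 2-fold calls for Ad-hHIF2 over Ad-GFP were 1 without a count filter and 1 on total counts, 0 on both TPM scales and 1 to 2 with a sample left out, and 3, with Pygl included, by median-ratio size factors, DESeq2, limma-voom and all 9 samples in 1 fit. Between the factors, the 2-fold calls were 0 on total counts and 0 on both TPM scales, and 1 to 2 with a sample left out; members called were 0 on TPM and 3 to 5 with a sample left out. Other glycogen genes called numbered 0 on both TPM scales in both comparisons with Ad-hHIF2, and 3 to 9 with a sample left out for Ad-hHIF2 over Ad-GFP. For Ad-hHIF1 over Ad-GFP, 1 member was called without a count filter, and members that crossed 0 with a sample left out were Pygl (-0.06 to 0.19), at -0.06 (without Ad-GFP replicate 4) and -0.03 (without Ad-hHIF1 replicate 4), Pygb (-0.04 to 0.10), at -0.04 (without Ad-GFP replicate 4) and Gyg (-0.01 to 0.15), at -0.01 (without Ad-hHIF1 replicate 3). The cause of these changes was not tested. The main fits were planned without a replicate block, because the study used none. Deviations of same-numbered samples from their group means correlated at 0.075, 0.07 and 0.134 for Ad-hHIF2 with Ad-GFP. These correlations were 0.097, 0.019 and -0.091 for Ad-hHIF1 with Ad-GFP, and -0.067, -0.069 and -0.194 between the factors. With a replicate block, 8 members were called for Ad-hHIF2 over Ad-GFP, 0 for Ad-hHIF1 over Ad-GFP and 4 between the factors, and the log2 fold change of Ppp1r3c was 2.71 (adjusted p = 0.00328). Depth limits Ppp1r3c, with 3 counts in the shallowest control, and Ppp1r3d, with at most 4.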

Other observations

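Genes that supply glucose to the pathway were listed beside the glycogen genes, and 6 of 8 were tested. With Ad-hHIF2, the glucose transporter Slc2a1 fell from 298 ± 6.83 CPM in Ad-GFP to 173 ± 5.72 CPM (log2 fold change -0.78 ± 0.0739, SE, edgeR adjusted p = 0.000141). The hexokinase Hk2 fell from 128 ± 8.0 to 92.1 ± 4.54 CPM (-0.47, edgeR adjusted p = 0.00249), and the isomerase Gpi1 rose from 549 ± 17.6 to 717 ± 42.9 CPM (0.39, edgeR adjusted p = 0.00778). That is 1 of 6 higher and 2 lower, where 15.9% and 13.6% of all genes were. With Ad-hHIF1, edgeR called 0 of the 6, and 0% of all genes (1 of the 6, Hk1 at 0.30, was higher at an unadjusted p of 0.05, as were 4.06% of all genes), and Slc2a1 was at 306 ± 7.47 CPM. Between the factors, Slc2a1 (-0.83, edgeR adjusted p = 1.41e-05), Hk2 (-0.52, 0.00171) and Hk1 (-0.49, 0.000900) were lower with Ad-hHIF2 and Gpi1 (0.29, 0.0191) was higher, where 12.0% of all genes were lower and 13.7% higher.

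Chosen after values were seen, the intestinal transcription factor Cdx1 was at 0 CPM in all samples, Cdx2 at 6.55 to 8.99 CPM and Hnf4a at 32.1 to 35.4 CPM with Ad-GFP, 21.2 to 26.7 CPM with Ad-hHIF2 and 30.7 to 33.4 CPM with Ad-hHIF1. Krt14 was at 2.60 to 2.90, 0.804 to 1.01 and 2.76 to 3.84 CPM in the same order, and Krt5 at 0 throughout.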
